A study of Homo sapiens with 2 samples.

Results

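The genes described here encode the subunits of the mitochondrial respiratory chain and ATP synthase that are made from nuclear DNA, with the complex I assembly factors that share the NDUFA symbol. Members were the protein-coding genes of GENCODE release 44 whose symbol has no hyphen and begins with NDUFA, NDUFB, NDUFC, NDUFS, NDUFV, UQCR, COX4I, COX5, COX6, COX7, COX8, ATP5F1, ATP5M or ATP5P, together with SDHA, SDHB, SDHC, SDHD and CYC1. The rule used no measured value. It took in 96 of the 58735 genes in the count tables, and each of the 96 was present in both tables. They were 39 complex I subunits, 8 complex I assembly factors (NDUFAF1 to NDUFAF8), 4 genes of complex II, 10 of complex III, 17 of complex IV and 18 of complex V.

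The RNA came from MCF10a-Snail-ER, a line of human mammary epithelial cells with a stable fusion of the transcription factor Snail (gene SNAI1) to the estrogen receptor (gene ESR1), which responds to tamoxifen. Cells of both libraries had received 100 nM tamoxifen for 1 day, and no untreated library is part of the series, so the comparison was between sequencing methods on polyadenylated RNA described as matched. The Nanopore library was made with a direct RNA kit, in which native RNA strands are read without amplification, and the Illumina library with a stranded mRNA kit, in which RNA is fragmented, copied into cDNA and amplified. There was 1 library per method, so no value has a replicate check, and every test and interval compares the reads of these 2 libraries and covers counting error only. The promoter that drives the fusion, and whether the line is a single clone, are not given in the sources used here.

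Complex I (NADH dehydrogenase) and complex II (succinate dehydrogenase) pass electrons to ubiquinone, complex III (the cytochrome bc1 complex) passes them to cytochrome c, and complex IV (cytochrome c oxidase) passes them to oxygen. Complexes I, III and IV pump protons across the inner mitochondrial membrane, and complex V (ATP synthase) makes ATP as the protons flow back. Complex II is encoded wholly in the nucleus, whereas the others join nuclear subunits, imported from the cytosol, to subunits made from mitochondrial DNA. Several complex IV subunits have separate genes for heart and skeletal muscle, lung or testis.

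Depth differed widely, with 403235 counts in the Nanopore library against 191741714 in the Illumina library. In counts per 1000000 (CPM), a single count was thus worth 2.48 for Nanopore but 0.00522 for Illumina. A count of 0 allows a level of up to 7.44 CPM by Nanopore and 0.0156 CPM by Illumina, taken as 3 counts. The basal epithelial keratins KRT5 (1686 CPM by Nanopore and 1447 CPM by Illumina) and KRT14 (799 and 611 CPM) were abundant. The leukocyte marker PTPRC had 0 and 2 counts, the muscle markers MYH7 and CKM had 0 and at most 2 counts, and the endothelial and fibroblast markers PECAM1, COL1A1 and PDGFRB had 0 Nanopore counts and 27 to 973 Illumina counts. Both parts of the fusion were high, with SNAI1 at 709 and 860 CPM and ESR1 at 965 and 143 CPM. The epithelial genes EPCAM (7.44 and 4.02 CPM) and CDH1 (7.44 and 24.2 CPM) were low in both libraries.

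Respiratory chain genes were well represented in both libraries. Their 7803 Nanopore counts made up 1.94% of that library (Wilson 95% interval 1.89 to 1.98%), and their 3157599 Illumina counts made up 1.65% (1.645 to 1.649%). Counts were present for 89 of the 96 genes by Nanopore and for 91 by Illumina. The 89 detected in both were also the ones that reached a mean of 5 CPM and were tested. A direct RNA read comes from 1 RNA molecule, while a longer RNA gives more Illumina fragments. Levels of different genes are therefore compared below only in Nanopore CPM or in Illumina TPM (transcripts per 1000000). For TPM, counts were divided by the length of the Ensembl canonical transcript. How a read over overlapping genes was counted is not given, as described below. Ratios of the same gene between libraries are in CPM unless TPM is named.

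Most members had similar CPM in the 2 libraries. The log2 ratio, log2 of (Nanopore CPM + 1) / (Illumina CPM + 1), had a median of 0.29 over the 89 tested members (quartiles -0.20 and 0.74), beside -0.42 over all 12414 tested genes. It was above 0 for 56 members (62.9%), beside 36.8% of all tested genes, and within 2-fold for 68 members (76.4%), beside 50.5%. Genes were called different at a Benjamini-Hochberg adjusted p under 0.05, in an exact binomial test on the counts over all tested genes, together with a ratio of at least 2-fold. By this rule 14 members (15.7%) were higher by Nanopore, beside 17.7% of all tested genes, and 7 members (7.87%) were higher by Illumina, beside 21.7%. At 4-fold the calls were 4 and 1, beside 12.9% and 7.31% of all tested genes. With the adjusted p alone, 37 members were higher by Nanopore and 14 by Illumina, beside 20.2% and 27.2% of all tested genes. Across the 89 members, Spearman's rho of Nanopore with Illumina CPM was 0.80, and it was 0.55 across all tested genes. These correlations are across genes, which are not replicates, and the 2 libraries share their RNA source. The tested members had a median of 75 Nanopore counts, while tested genes reach down to a mean of 5 CPM, where a single Nanopore count weighs more. What level contributed to rho and to the shares within 2-fold was not tested.

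**Figure D1:**
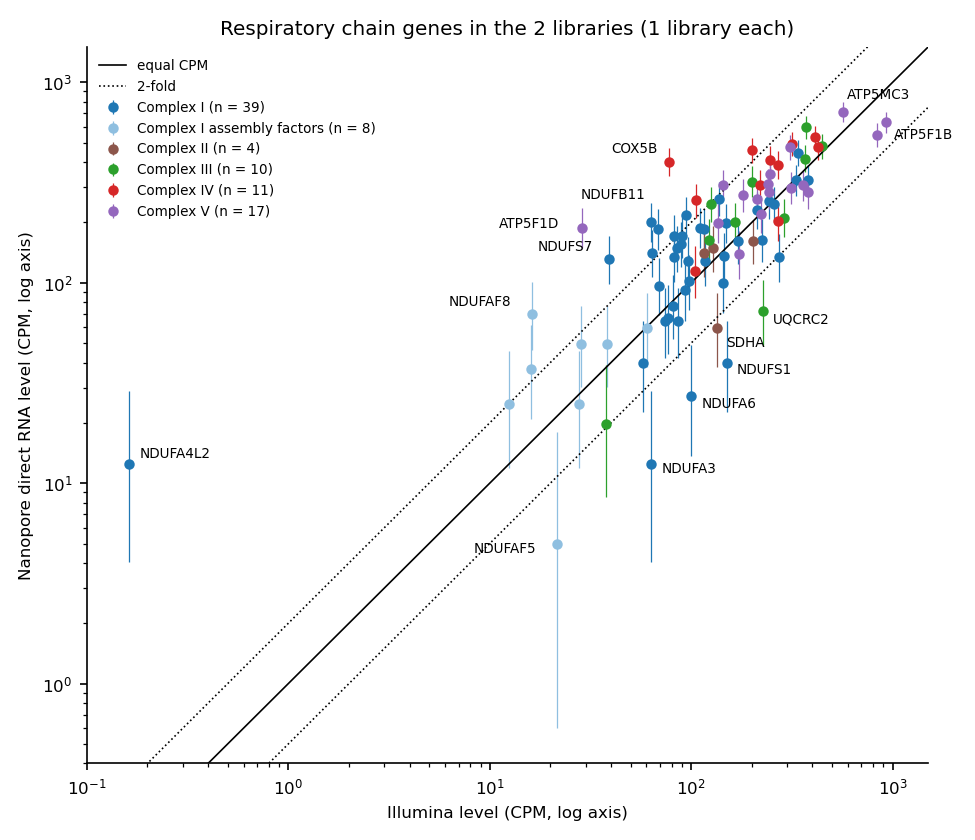
Level of each of the 89 tested genes by Illumina (x axis, CPM, log scale) and by Nanopore (y axis, CPM, log scale), coloured by complex, with vertical bars for the exact 95% Poisson interval of the Nanopore count and lines at equal CPM and at 2-fold. Most points lie between the 2-fold lines, with COX5B, ATP5F1D and NDUFAF8 above them, NDUFA3, NDUFA6 and UQCRC2 below, and NDUFA4L2 far to the left at 31 Illumina counts.

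Respiratory chain mRNAs are short, and the ratio between the libraries moved with length across the transcriptome. The median canonical transcript of the tested members was 857 bases, beside 3287 bases for tested protein-coding genes, and 57.3% of members but 7.03% of tested protein-coding genes had one under 1000 bases. Of all 738 tested protein-coding genes under 1000 bases, 29.9% were called higher by Nanopore and 4.34% by Illumina, at a median log2 ratio of 0.48. For the 9760 of 1000 bases or more the shares were 7.49% and 26%, with a median of -0.65, and for protein-coding genes of any length they were 9.07% and 24.5%. The 51 tested members under 1000 bases had a median of 0.41, with 12 called higher by Nanopore and 1 by Illumina. The 38 longer members had a median of 0.16, with 2 and 6 called. With Illumina values divided by canonical length, as described next, the 51 shorter members had a median of -0.95 with 3 and 25 called. The 38 longer ones had a median of 0.71 with 13 and 2 called, beside 28.3% and 6.59% of all tested genes of any length. What length contributed to the ratio of any one member was not tested.

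Dividing the Illumina counts by canonical transcript length turned the median the other way. Division by union exonic length, with all exons of a gene merged, left the members' median at 0.29, but beside 0.42 for all tested genes. With Illumina values in TPM, the members' median log2 ratio was -0.39, beside 0.48 for all tested genes, and they held 2.89% of TPM. On that scale 16 members were called higher by Nanopore and 27 higher by Illumina, beside 28.3% and 6.59% of all tested genes. Among all protein-coding genes under 1000 bases, the shares in TPM were 15.9% and 31.2%, with a median of -0.63. No member was called in opposite directions on the 2 scales. NDUFA4L2, NDUFAF7, COX5B and ATP5F1D were called higher by Nanopore on both, and NDUFA3, NDUFA6 and UQCRC2 were called higher by Illumina on both. Of these, NDUFA4L2 passed the 5 CPM filter only through its Nanopore counts, as described below. TPM depends on which transcript is taken as the gene's length: 9 tested members have a canonical transcript over 4000 bases, among them NDUFS1 (11660 bases), UQCRB (8459 bases) and NDUFA9 (8356 bases), and such a length lowers their TPM.

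Among the complexes, IV stood furthest toward Nanopore. Its summed counts gave a Nanopore to Illumina ratio of 1.53 (exact conditional 95% interval 1.45 to 1.60), and 10 of its 11 tested genes had a log2 ratio above 0, with a median of 0.51. Complex I with its assembly factors had a summed ratio of 1.17 (1.13 to 1.22) and a median of 0.13. The summed ratio of complex III was 1.16 (1.09 to 1.23) with a median of 0.24, and that of complex V was 1.05 (1.01 to 1.09) with a median of 0.30. Complex II, the smallest, had a summed ratio of 0.88 (0.764 to 1.01) and a median of -0.05. The interval of complex IV overlapped that of no other complex, those of complexes I and III overlapped, and that of complex II included 1. In TPM every complex had a summed log2 ratio below 0, at -0.77 for I, -0.34 for II, -0.21 for III, -0.60 for IV and -0.51 for V, so the order of the complexes differed between scales. Without members that overlap another gene, the summed log2 ratio of complex IV was 0.73, that of complex III was -0.06 and that of complex V was -0.03.

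**Figure D2:**
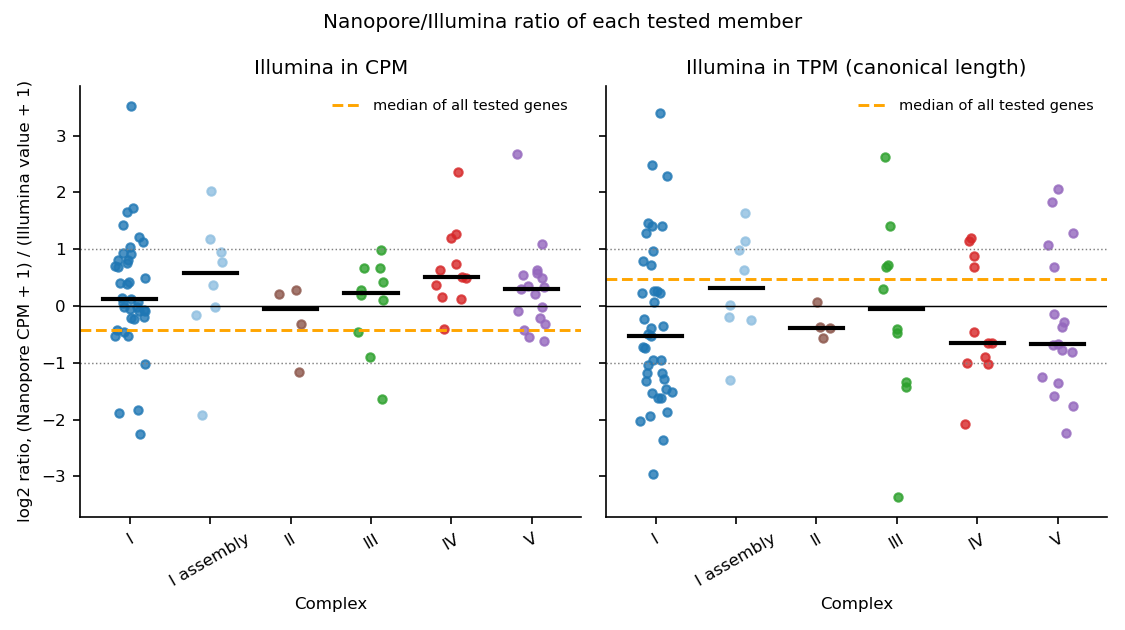
Log2 ratio of Nanopore CPM plus 1 over the Illumina value plus 1 for each tested gene, by complex (x axis), with the Illumina value in CPM at the left and in TPM at the right; black bars are medians, the dashed line is the median of all tested genes and dotted lines mark 2-fold. In CPM the medians of complexes III, IV and V lie at 0.24, 0.51 and 0.30, and that of the complex I assembly factors at 0.58. These lie above the all-gene median of -0.42, while in TPM the medians of all complexes lie below the all-gene median of 0.48.

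In complex I, the 7 nuclear core subunits, which hold the flavin and iron-sulfur clusters or lie beside the quinone site, split in both directions. NDUFS7, which carries the last iron-sulfur cluster before ubiquinone, had 53 Nanopore counts (131 CPM) and 7457 Illumina counts (38.9 CPM), a 3.38-fold higher level by Nanopore (interval 2.53 to 4.43). NDUFS8, another cluster carrier, stood at 141 and 63.9 CPM (2.21-fold, 1.68 to 2.87), and NDUFS3, of the quinone-binding arm, at 171 and 82.4 CPM (2.08-fold, 1.61 to 2.63). These 3 of the 7 were called higher by Nanopore in CPM, beside 17.7% of all tested genes. In TPM 0 of the 7 core genes were called in either direction, beside 28.3% higher by Nanopore and 6.59% higher by Illumina among all tested genes. The log2 ratios in TPM were 0.72 for NDUFS7, 0.07 for NDUFS8 and 0.26 for NDUFS3.

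NDUFS1, the largest core subunit and holder of several clusters, went the other way, with 16 Nanopore counts (39.7 CPM) against 28725 Illumina counts (150 CPM), a 3.78-fold higher level by Illumina (2.32 to 6.61). In TPM by canonical length (11660 bases) the ratio of NDUFS1 turned, to a log2 value of 0.96. That turn depended on the length taken. By median transcript length (2382.5 bases) NDUFS1 stood at 70.3 TPM, above its Nanopore level. The flavoprotein subunits NDUFV1 (99.2 and 144 CPM) and NDUFV2 (231 and 211 CPM) were within 2-fold. Summed over the 7 core genes, the ratio was 0.985 (0.889 to 1.09), so the calls in each direction were offset in the sum.

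The 32 accessory subunits, which surround and stabilise the core, had a summed ratio of 1.20 (1.15 to 1.25), with 4 called higher by Nanopore and 2 by Illumina, beside 17.7% and 21.7% of all tested genes. In TPM 7 were called higher by Nanopore and 15 by Illumina, beside 28.3% and 6.59%. NDUFB11, a small membrane-arm subunit encoded on chromosome X, had 201 CPM by Nanopore and 63.4 CPM by Illumina (3.17-fold, 2.51 to 3.94). NDUFAB1, the mitochondrial acyl carrier protein, had 186 and 68.3 CPM (2.73-fold, 2.14 to 3.42), and NDUFS6, a zinc-binding subunit, had 218 and 93.7 CPM (2.33-fold, 1.87 to 2.87). In TPM none of these 3 was called, and the log2 ratio of NDUFS6 was -0.36.

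NDUFA4L2 (chromosome 12, 57234903 to 57240715, minus strand), a paralog of NDUFA4 known as a hypoxia-induced gene, was the member furthest apart between libraries. It had 5 Nanopore counts (12.4 CPM) and 31 Illumina counts (0.162 CPM), a 76.7-fold higher level by Nanopore with an interval from 23.3 to 199. At this Illumina level it reached the mean of 5 CPM only through its Nanopore counts, so it could be tested only where Nanopore was high. With a mean of 20 CPM required it was not tested, and 13 members were higher by Nanopore. Its gene body overlaps SHMT2 on the opposite strand, a gene with 49 Nanopore and 52125 Illumina counts. Whether counting used strand is not given in the sources used here, so reads of the 2 genes cannot be told apart. NDUFA4 itself, which is now counted as a subunit of complex IV, had 446 and 339 CPM and was the highest of the NDUFA to NDUFV genes by Nanopore.

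NDUFA3 and NDUFA6 were the accessory subunits higher by Illumina. NDUFA3 (chromosome 19, 54102728 to 54109257, plus strand) had 5 Nanopore counts against 12076 Illumina counts, or 12.4 against 63.0 CPM, 5.08-fold higher by Illumina (2.18 to 15.6). NDUFA6 (chromosome 22, 42085526 to 42090884, minus strand), a LYR-motif subunit, had 11 against 19117 counts, or 27.3 against 99.7 CPM (3.65-fold, 2.04 to 7.32). Among the tested members, only these 2 have a copy of their sequence on alternate contigs of hg38, 6 for NDUFA3 and 3 for NDUFA6. Of all 329 tested genes with such a copy, 10.6% were called higher by Nanopore and 54.7% by Illumina, at a median log2 ratio of -1.65. How either aligner placed reads among these copies is not given, and the part of the copies in the 2 calls was not tested.

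The highest complex I subunits by Nanopore after NDUFA4 were NDUFB9 and NDUFS5, each with 131 counts (325 CPM). Their Illumina TPM were 740 and 1192, among the highest of the members. The 8 assembly factors, which build complex I but are not part of it, were lower, with a median of 43.4 CPM by Nanopore beside 141 CPM for the subunits, and a median TPM of 26.4 beside 199. Between libraries they had a summed ratio of 1.45 (1.21 to 1.73) and a median log2 ratio of 0.58. NDUFAF8 had 69.4 and 16.3 CPM and was 4.27-fold higher by Nanopore (2.83 to 6.19), and NDUFAF7, a methyltransferase that acts on a core subunit, had 37.2 and 16.0 CPM (2.33-fold, 1.30 to 3.85). NDUFAF5, a member of the methyltransferase family that modifies NDUFS7, had 2 Nanopore and 4116 Illumina counts, a 4.33-fold higher level by Illumina with an interval from 1.20 to 35.7. Its Nanopore level of 4.96 CPM lay under the 5 CPM of the filter, which it passed through its Illumina counts. Its call rested on 2 Nanopore counts and was lost under rescaling by trimmed means (exact binomial test, Benjamini-Hochberg adjusted p = 0.0543), with adjusted p from 0.0364 to 1 over the alternatives that tested it.

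In complex II, the subunits that anchor the enzyme and carry its clusters were alike in both libraries. SDHB, the iron-sulfur subunit, had 60 Nanopore counts (149 CPM) and 24519 Illumina counts (128 CPM). The membrane anchors SDHC (161 and 202 CPM) and SDHD (141 and 116 CPM) were also within 2-fold. SDHA, the flavoprotein that oxidises succinate, was lowest by Nanopore at 59.5 CPM and stood at 135 CPM by Illumina, 2.27-fold higher by Illumina (1.52 to 3.54). Of its 50-base words, 73.6% occur in another annotated gene and 23.9% in a gene that does not overlap it. The gene that overlaps SDHA shares 67.2% of the words and is not among the genes counted. How reads were placed among the other copies is not given, and their part in the call was not tested.

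In complex III, the core proteins and redox subunits had a lower summed ratio in CPM than the small subunits, a difference that rested on UQCRC2 and did not hold in TPM. UQCRC2, a core protein related to processing peptidases, had 29 Nanopore counts (71.9 CPM) and 43401 Illumina counts (226 CPM), 3.15-fold higher by Illumina (2.19 to 4.70). It overlaps no other gene and shares none of its 50-base words with another. Its partner UQCRC1 had 211 and 288 CPM. The heme protein CYC1 (320 and 200 CPM) and the Rieske iron-sulfur protein UQCRFS1 (164 and 122 CPM) were within 2-fold in the other direction. Summed, these 4 genes had a ratio of 0.916 (0.817 to 1.02) and the 6 small subunits a ratio of 1.30 (1.21 to 1.39), so the intervals did not overlap. Without UQCRC2 the other 3 had a ratio of 1.14 (1.01 to 1.28), whose interval overlapped that of the small subunits. With Illumina values in TPM the order turned, with sums of 766 CPM by Nanopore and 785 TPM by Illumina for the 4 genes against 1959 CPM and 2358 TPM for the small subunits.

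By Nanopore the small subunits were led by UQCRQ (595 CPM), UQCRH (479 CPM) and UQCRB (417 CPM), and the lowest was UQCRHL, with 8 counts (19.8 CPM). In Illumina TPM UQCRQ stood at 368, UQCRH at 1283, UQCRHL at 213 and UQCRB, whose canonical transcript is long, lowest of the 6 at 67.0. For UQCRHL, 7281 Illumina counts gave 38.0 CPM. UQCRH (chromosome 1, 46303698 to 46316776, plus strand) encodes the hinge protein, which lies beside cytochrome c1, and UQCRHL (chromosome 1, 15807169 to 15809348, minus strand) is a near copy of it. Their coding sequences from GENCODE release 44, without the stop codon, are shown because the 4 differing bases, in capitals, are the only ones in the coding sequence that tell a read of UQCRH from a read of UQCRHL.
UQCRH: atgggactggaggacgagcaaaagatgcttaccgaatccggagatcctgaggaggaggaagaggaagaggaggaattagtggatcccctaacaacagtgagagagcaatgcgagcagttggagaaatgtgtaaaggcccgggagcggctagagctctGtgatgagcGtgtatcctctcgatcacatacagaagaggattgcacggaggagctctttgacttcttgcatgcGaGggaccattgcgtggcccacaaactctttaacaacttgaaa
UQCRHL: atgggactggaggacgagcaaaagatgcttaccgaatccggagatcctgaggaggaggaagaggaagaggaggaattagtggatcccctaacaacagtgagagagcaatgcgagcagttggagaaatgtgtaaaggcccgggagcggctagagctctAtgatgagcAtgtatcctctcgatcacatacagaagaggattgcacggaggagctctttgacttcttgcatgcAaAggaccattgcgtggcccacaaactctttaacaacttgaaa
Counted from 1 at the A of the start codon, with the UQCRH base first, the substitutions are G158A, G167A, G231A and G233A, over 273 bases, and they change 3 of 91 residues. Of the pair's counts, UQCRHL took 3.98% by Nanopore (Wilson 95% interval 2.03 to 7.66%) and 7.87% by Illumina (7.70 to 8.05%), and its share of the pair's TPM was 14.3%. That share takes a canonical transcript of 276 bases for UQCRHL and depends on the length taken. By median transcript length (1228 bases for UQCRHL and 537 for UQCRH) the levels were 34.6 TPM for UQCRHL and 925 TPM for UQCRH. The call rule was not met for UQCRHL, and with 53.7% of its 50-base words present in another gene its counts are uncertain in both libraries.

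In CPM complex IV had 3 genes called higher by Nanopore and 0 called higher by Illumina, beside 17.7% and 21.7% of all tested genes. In TPM 2 were called higher by Nanopore and 3 higher by Illumina, which were COX6A1 (log2 ratio -1.01), COX6B1 (-2.07) and COX7A2, the nearest to the 2-fold limit. COX5B (chromosome 2, 97646062 to 97648383, plus strand), a zinc-binding subunit on the matrix side, had 162 Nanopore counts (402 CPM) and 14929 Illumina counts (77.9 CPM), a 5.16-fold higher level by Nanopore (4.39 to 6.02) with an exact binomial, Benjamini-Hochberg adjusted p of 9.76e-59. COX5B overlaps no other gene, shares no 50-base word with one, and was also called in TPM. Its matrix-side neighbour COX5A, which binds a thyroid hormone metabolite, had 258 and 106 CPM (2.43-fold, 1.99 to 2.95). COX8A, a very small membrane subunit, had 459 and 200 CPM (2.29-fold, 1.97 to 2.65), and in TPM its log2 ratio was -0.45. COX8A overlaps an unnamed noncoding gene on the same strand, which had 202 Nanopore and 12172 Illumina counts beside 185 and 38424 for COX8A. Reads of these 2 genes cannot be told apart. The remaining tested genes of complex IV were within 2-fold in CPM.

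The highest complex IV genes by Nanopore were COX4I1 (531 CPM), COX7C (494 CPM) and COX6C (474 CPM), and the lowest tested was COX7A2L (114 CPM), which is known for joining complex III to complex IV in supercomplexes. By Illumina the same 3 genes had 837, 779 and 887 TPM, and COX7A2L had 70.7 TPM. Of the set COX7A1, COX7A2 and COX7A2L, COX7A2 accounted for 78.3% by Nanopore (72.3 to 83.3%) and for 70.3% by Illumina (70.0 to 70.6%) of the counts. In TPM, which takes account of the longer COX7A2L transcript, its share was 92.1%.

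None of the complex IV genes known for other tissues was above the level that a count of 0 allows. COX4I2, a hypoxia-responsive lung form, the muscle forms COX6A2 and COX7A1, and the testis forms COX7B2 and COX8C had 0 counts in both libraries. The testis form COX6B2 had 0 Nanopore and 3 Illumina counts. The 0 Nanopore counts allow each of these genes up to 7.44 CPM, and the 0 Illumina counts of COX4I2, COX6A2, COX7A1, COX7B2 and COX8C allow up to 0.0156 CPM. Their partners carried the counts, with COX4I1 at 214 Nanopore and 78986 Illumina counts, COX6A1 at 156 and 51923, COX6B1 at 82 and 51754, COX7B at 124 and 42081, and COX8A at 185 and 38424. The Illumina depth therefore sets the tighter limit, under which COX4I2 held at most 0.00486% of the COX4I1 and COX4I2 counts (upper Wilson bound).

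In complex V, the head with its central stalk had the largest summed level of the 4 parts by Nanopore, at 2128 CPM. In TPM its sum of 1562 was below those of the other membrane subunits (3434) and the peripheral stalk (1871). That sum takes a canonical transcript of 5761 bases for ATP5F1A. By median transcript length the head's sum was 2719 TPM, above the peripheral stalk (1503) and below the other membrane subunits (2849). ATP5F1B, the catalytic beta subunit, had 255 Nanopore counts (632 CPM) and 177485 Illumina counts (926 CPM, 816 TPM), and ATP5F1A, the alpha subunit, had 221 counts (548 CPM) and 160613 counts (838 CPM, 225 TPM). Both were within 2-fold in CPM, while in TPM by canonical length ATP5F1A was called higher by Nanopore (log2 ratio 1.28). By median transcript length ATP5F1A stood at 1029 TPM, above its Nanopore level. Of the central stalk, the gamma subunit ATP5F1C (283 and 244 CPM) and the epsilon subunit ATP5F1E (476 and 308 CPM) were within 2-fold in CPM as well. In TPM by canonical length ATP5F1E was called higher by Nanopore (log2 ratio 1.84). With ATP5F1D, 3 of the 5 genes were called higher by Nanopore on that scale and 0 by Illumina, beside 28.3% and 6.59% of all tested genes. ATP5F1D (chromosome 19, 1241746 to 1244825, plus strand), the delta subunit of the same stalk, was the lowest of the 5 by Illumina, with 5500 counts (28.7 CPM, 44.7 TPM) against 76 Nanopore counts (188 CPM).

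ATP5F1D was thus 6.57-fold higher by Nanopore (5.17 to 8.24), with an exact binomial, Benjamini-Hochberg adjusted p of 2.50e-34. It overlaps no other gene and shares no 50-base word with one, and the call held in TPM, with a log2 ratio of 2.05. Its canonical transcript has a GC content of 69.5%, and the 14 members called higher by Nanopore had a median GC content of 58.1% beside 46.2% for the other 75 tested members. This contrast was chosen after the values were seen. Over all 89 tested members Spearman's rho of the log2 ratio was 0.20 with GC content, -0.19 with canonical length and -0.35 with coding length, so none ordered the members closely. The part of GC content in the calls was not tested.

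The c ring, the rotor in the membrane, is encoded by ATP5MC1, ATP5MC2 and ATP5MC3, which make the same mature protein behind different import sequences. The last 75 codons of each gene, which encode the mature c subunit, are shown from GENCODE release 44, with capitals at the 52 of 225 positions where the 3 are not all alike.
ATP5MC1: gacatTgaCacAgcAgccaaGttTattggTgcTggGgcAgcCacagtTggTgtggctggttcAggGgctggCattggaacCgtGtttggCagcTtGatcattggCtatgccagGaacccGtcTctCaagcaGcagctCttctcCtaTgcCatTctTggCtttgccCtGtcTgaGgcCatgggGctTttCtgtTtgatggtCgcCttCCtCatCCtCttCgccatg
ATP5MC2: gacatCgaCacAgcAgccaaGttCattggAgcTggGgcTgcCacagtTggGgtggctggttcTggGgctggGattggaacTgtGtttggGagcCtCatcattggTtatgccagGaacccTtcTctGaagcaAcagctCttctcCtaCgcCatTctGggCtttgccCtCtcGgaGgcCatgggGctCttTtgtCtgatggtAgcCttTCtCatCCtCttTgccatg
ATP5MC3: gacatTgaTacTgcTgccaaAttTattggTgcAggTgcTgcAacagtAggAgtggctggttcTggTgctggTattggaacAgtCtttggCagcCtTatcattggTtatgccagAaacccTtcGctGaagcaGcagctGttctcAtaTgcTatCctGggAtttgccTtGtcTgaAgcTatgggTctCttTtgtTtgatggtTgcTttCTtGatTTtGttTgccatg
None of the 75 residues differs among the 3 genes, and 61, 66 and 67 codons come before this stretch in ATP5MC1, ATP5MC2 and ATP5MC3. Under 5% of the 50-base words of each of the 3 genes occur in another gene.

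ATP5MC3 was the highest of all members by Nanopore, with 287 counts (712 CPM) and 338 TPM by Illumina. Its share of the 3 genes' Nanopore counts was 59.4% (55.0 to 63.7%), while ATP5MC2 held 29.0% (25.1 to 33.2%) and ATP5MC1 11.6% (9.04 to 14.8%). By Illumina the shares of counts were 57.3%, 25.1% and 17.6%, in the same order. In TPM, with canonical lengths of 2587, 632 and 646 bases, they were 24.8%, 44.6% and 30.6%, so ATP5MC2 led on that scale. That lead depended on the length taken. By median transcript length (842, 954 and 503.5 bases) the levels were 749, 290 and 385 TPM, and ATP5MC3 led.

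The peripheral stalk, which holds the head still, had 4 genes between 221 and 310 CPM by Nanopore and a summed ratio of 1.10 (0.999 to 1.21). Of the smaller membrane subunits, ATP5MK, named here after its values were seen as the last of the 14 called, had 308 and 144 CPM (2.13-fold, 1.77 to 2.54). ATP5MGL, a copy of ATP5MG, had 0 Nanopore and 4 Illumina counts beside 124 and 68474 for ATP5MG, and was not tested.

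Ordered by Nanopore level, the members formed a continuous range. The top after ATP5MC3 were ATP5F1B (632 CPM), UQCRQ (595 CPM), ATP5F1A (548 CPM) and COX4I1 (531 CPM), and only the intervals of ATP5F1B and UQCRQ reached that of ATP5MC3 (632 to 799 CPM). No adjacent pair among the 89 had intervals that did not overlap, so neighbours in this order cannot be separated at this depth. At the low end were NDUFAF5 (4.96 CPM), NDUFA3 and NDUFA4L2 (both 12.4 CPM) and UQCRHL (19.8 CPM). The median Nanopore level was 402 CPM for complex IV, 298 CPM for V, 229 CPM for III, 145 CPM for II and 131 CPM for I with its assembly factors. The Illumina TPM medians came in the same order, at 779, 417, 237, 165 and 159 TPM. Complexes I and II changed places in TPM when the assembly factors were left out, since the subunits of complex I alone had a median of 199 TPM, and 141 CPM by Nanopore. With the assembly factors kept, TPM by median transcript length also put complex I (144 TPM) above complex II (137 TPM). Across members, Spearman's rho of Nanopore CPM with Illumina TPM was 0.66 (n = 89 genes), lower than with Illumina CPM.

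**Figure D3:**
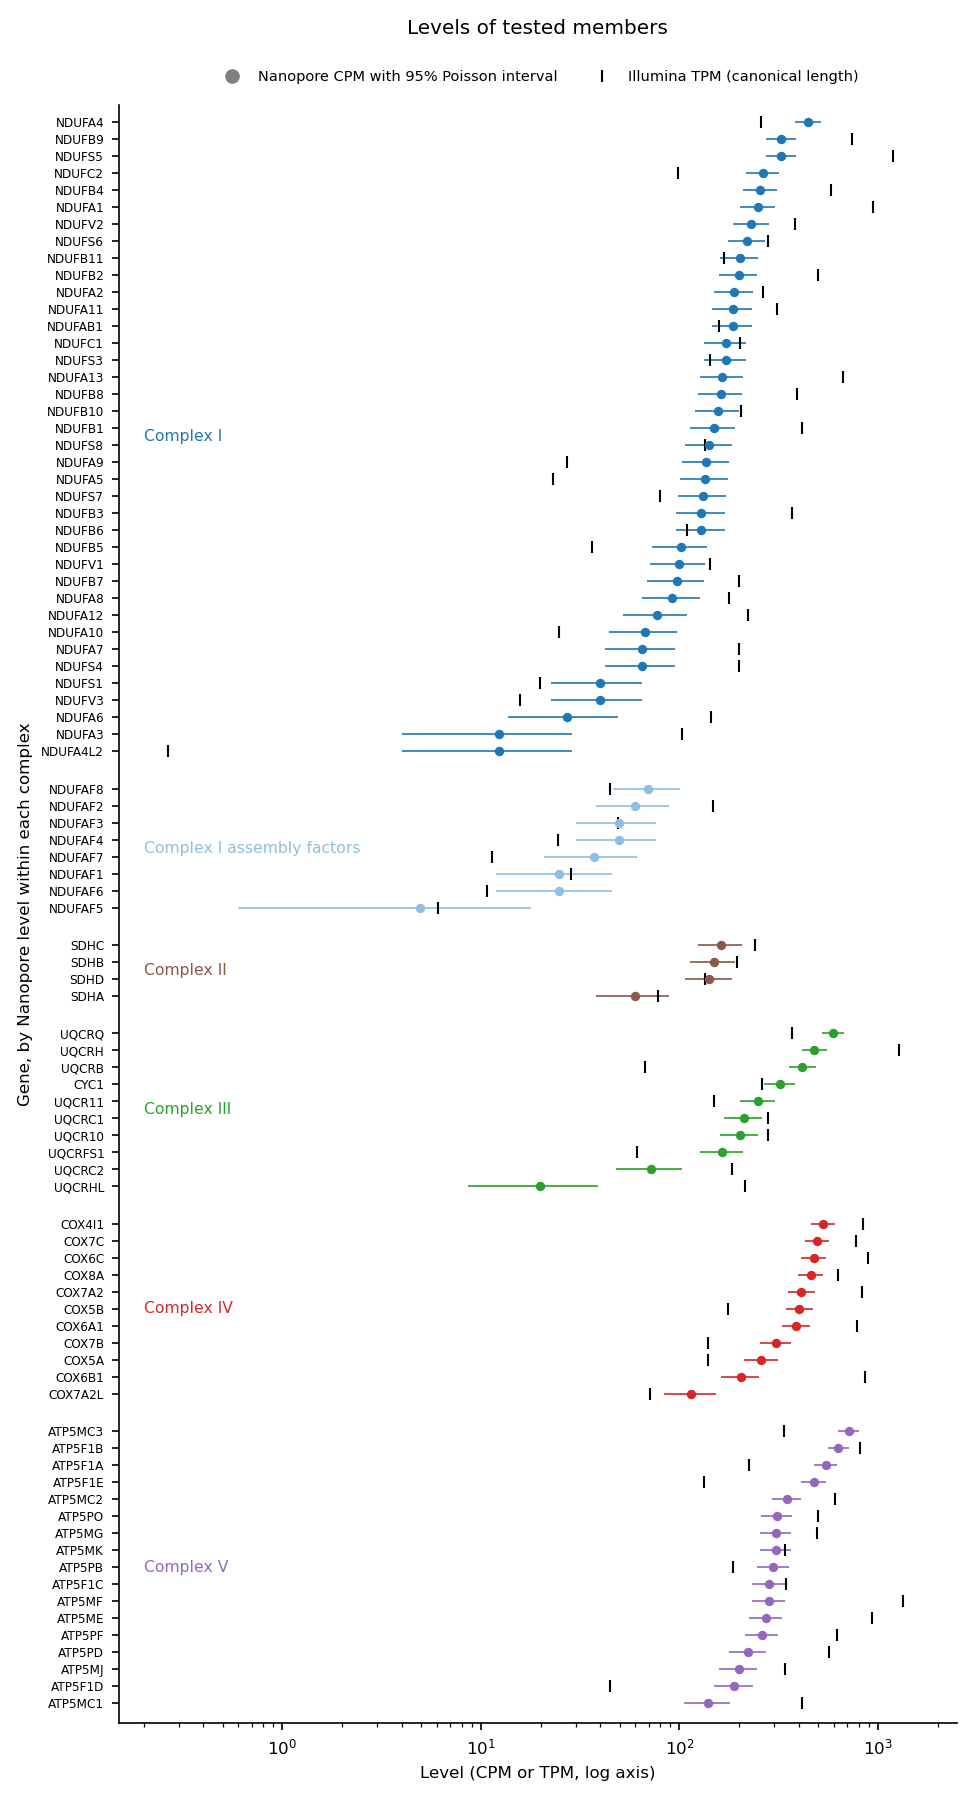
Nanopore level of 88 of the 89 tested genes (dots, CPM, with exact 95% Poisson intervals) and its Illumina level (ticks, TPM by canonical length) on a log axis, grouped by complex and ordered by Nanopore level within each. Complex IV genes run from 114 to 531 CPM and complex I assembly factors from 4.96 to 69.4 CPM, and for several genes with a long canonical transcript, such as UQCRB at 67.0 TPM and NDUFA9 at 27.0 TPM, the tick lies far left of the dot.

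Many members share their position with another gene, which bears on both libraries. Of the 96 genes, 58 overlap the body of another annotated gene and 38 do not. Among all tested genes, 20.9% of those that overlap another were called higher by Nanopore and 20.6% by Illumina, beside 5.98% and 26% of those that overlap none. For 8 members (NDUFA7, NDUFA11, NDUFA13, NDUFB8, NDUFV2, SDHA, UQCRHL and ATP5PO) over 50% of the 50-base words occur in another gene, and for 5 of these none or under 5% do once overlapping genes are set aside. For the members the medians were close, at 0.29 for the 54 tested members with an overlap (8 called higher by Nanopore, 5 by Illumina) and 0.22 for the 35 without (6 and 2).

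For 16 members the Nanopore count of an overlapping gene was within 10% of the member's own, in 20 pairs. In 9 pairs the neighbour lay on the opposite strand. NDUFV2 and its antisense gene NDUFV2-AS1 each had 93 Nanopore counts, whereas by Illumina they had 40501 and 111. NDUFB8 and HIF1AN had 65 and 63 Nanopore counts but 32916 and 14730 Illumina counts. NDUFS7, ATP5MG, ATP5PD, ATP5ME, NDUFB6, NDUFB9 and NDUFAF1 made up the other opposite-strand pairs. Over the 9 pairs, the neighbour's Illumina count was 0.274 to 302% of the member's, with a median of 14.8%.

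In the other 11 pairs the neighbour lay on the same strand, mostly a readthrough or unnamed model that spans the member. NDUFA13 had 66 Nanopore counts, as did the model over it, and 43147 Illumina counts beside 36406. For NDUFC2 and its readthrough NDUFC2-KCTD14 the Nanopore counts were 106 and 107, and the Illumina counts 26309 and 22237. Over the 11 pairs the neighbour's Illumina count was 29.6 to 84.5% of the member's, with a median of 76.9%. Equal Nanopore counts were thus seen on either strand, while in 6 of the 9 opposite-strand pairs the neighbour's Illumina percent was below the lowest of the same-strand pairs. How reads over 2 genes were counted in either library is not given in the sources used here, so for these members the reads of the gene and its neighbour cannot be told apart.

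**Figure D4:**
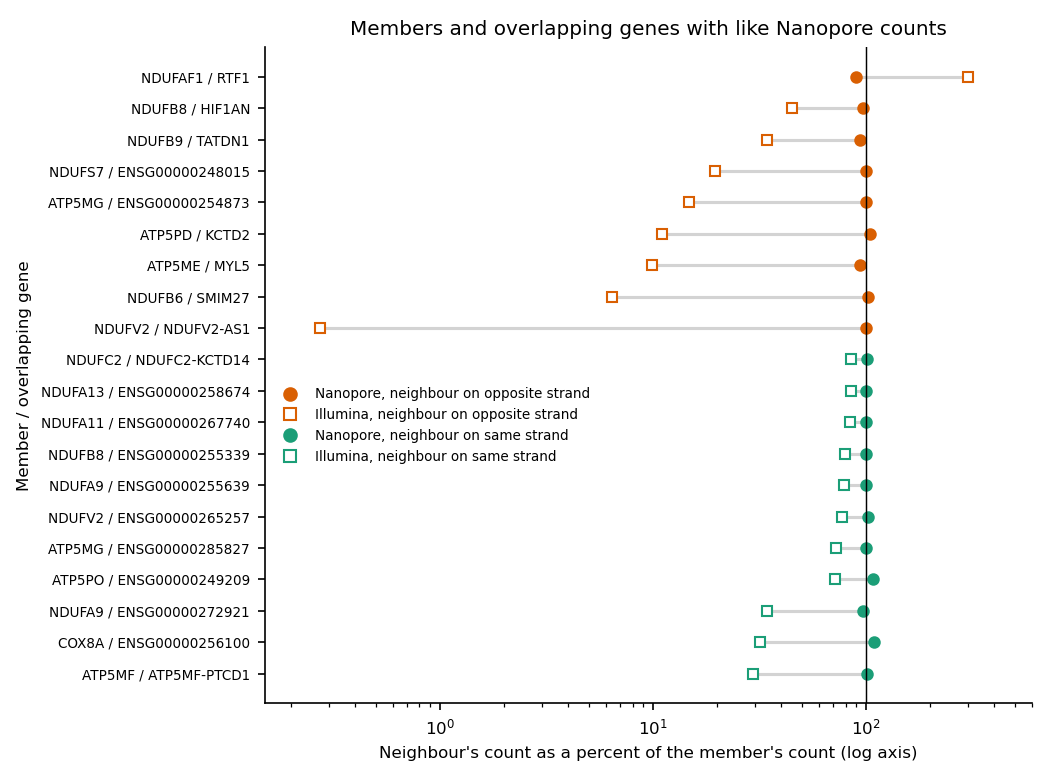
For each member paired with an overlapping gene of like Nanopore count, the neighbour's count as a percent of the member's own (x axis, log scale), by Nanopore (filled) and Illumina (open), with opposite-strand neighbours in orange and same-strand neighbours in green. Nanopore values sit near 100% by the choice of pairs, and Illumina values of opposite-strand neighbours run from 0.274% for NDUFV2-AS1 to 302% for RTF1.

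Other assembly factors had a median ratio closer to that of all tested genes than to that of the members. The 8 complex I assembly factors among the members had a median log2 ratio of 0.58. A list of 51 further assembly factors of complexes I to V, cytochrome c and the ATP synthase inhibitor, all tested, had a median log2 ratio of -0.34. Of these, 3 were called higher by Nanopore and 6 by Illumina in CPM, beside 17.7% and 21.7% of all tested genes. Higher by Nanopore were ATP5IF1, the inhibitor of ATP hydrolysis (223 and 92.5 CPM), SCO2, a copper chaperone of complex IV (62.0 and 16.0 CPM), and UQCC5, an assembly factor of complex III (59.5 and 18.7 CPM). The 6 higher by Illumina were COX18, COA7, PET100, LRPPRC, FOXRED1 and DMAC2, of which LRPPRC, which stabilises mitochondrial mRNAs, had 71.9 and 161 CPM. CYCS, the electron carrier between complexes III and IV, was within 2-fold at 389 and 340 CPM. In TPM 9 of the 51 were called higher by Nanopore and 9 by Illumina, beside 28.3% and 6.59% of all tested genes.

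Of 10 regulators of mitochondrial biogenesis, 9 were tested, with a median of -0.34. In CPM 2 were called higher by Nanopore and 1 by Illumina, beside 17.7% and 21.7% of all tested genes. GABPA, the DNA-binding subunit of GA-binding protein, had 231 and 27.3 CPM, and its body overlaps ATP5PF on the opposite strand, with 93 Nanopore counts beside 105 for ATP5PF. ESRRA, an orphan nuclear receptor that acts with coactivators of the PPARGC family, had 161 and 46.0 CPM. PPRC1, a coactivator related to that family, had 24.8 and 60.7 CPM, and PPARGC1A, the untested gene, had 0 Nanopore and 12 Illumina counts. In TPM 4 of the 9 were called higher by Nanopore and 0 by Illumina, beside 28.3% and 6.59% of all tested genes.

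The 13 subunits encoded in mitochondrial DNA held 6.53% of Nanopore and 5.22% of Illumina counts, more than the 1.94% and 1.65% of the 96 nuclear genes. Their median log2 ratio was 0.35. MT-ND4L (2006 and 831 CPM) and MT-ATP8 (5701 and 1657 CPM), which are read from transcripts that they share with MT-ND4 and MT-ATP6, were called higher by Nanopore, and MT-ND5 (1572 and 3433 CPM) higher by Illumina. Those 2 and 1 calls stood beside 17.7% and 21.7% of all tested genes. In TPM, 0 of the 13 were called higher by Nanopore and 5 higher by Illumina, beside 28.3% and 6.59% of all tested genes. MT-CO1 was the most abundant of them by Nanopore, at 11519 CPM beside 9020 CPM by Illumina.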

How the data were processed

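The data were 2 tables of gene counts, 1 per sequencing method. The authors deposited whole-number counts per Ensembl gene, without normalization. The submitters' processing notes name hg38, minimap2 2.11-r797, HISAT2 2.1.0 and featureCounts, with no role stated. The annotation release, use of strand, treatment of overlapping genes and of reads with several alignments, and whether Illumina values count reads or fragments are not given in the sources used here. The name of each count column holds a sample tag that no label explains. Nor do these sources say if short reads were used to correct the Nanopore reads, which would bear on every Nanopore value. No table had a row without a gene identifier.

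Gene identifiers were looked up in GENCODE release 44 (hg38) for names, positions, lengths and sequences (58207 of 58735 matched). Counts were scaled to CPM by library totals, and to TPM by the length of the Ensembl canonical transcript. Every gene whose mean reached 5 CPM entered an exact conditional binomial test, two-sided (scipy 1.17.1, numpy 2.4.6, Python 3.11.15), doubling the smaller tail, with Benjamini-Hochberg adjustment over all 12414 tested genes, and called at an adjusted p under 0.05 and 2-fold on log2(CPM + 1), a scale that compresses the ratios of low genes. A quasi-likelihood model needs replicates and was not fitted. The test was checked on simulated counts. Intervals are exact Poisson for CPM, exact conditional for ratios and Wilson for shares, all at 95%. Illumina reads are amplified and not independent molecules, so intervals cover counting error only.

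Overlap means that gene bodies share a base on either strand. Shared sequence is the share of 50-base words of the canonical transcript found in another gene. Copies on alternate contigs were counted where at least 80% of that transcript aligned with at most 5% divergence (minimap2 2.31). Named were all called members (at most 12 per direction), the 3 highest and the lowest of each complex by Nanopore, undetected members, fixed sets of isoform genes, catalytic core subunits, members within 10% of the Nanopore count of an overlapping gene, and members with over 50% of their words in another gene. Alternatives were TMM scaling (edgeR 4.0.16 in R 4.3.3), median-ratio scaling over genes that reached 10 counts in both libraries, TPM by canonical or union exonic length, pseudocounts of 0.1 and 5 CPM, no filter or a mean of 20 CPM, 4-fold, other minimum counts for detection, and subsets without overlap, without shared words or without assembly factors. TPM by median transcript length and leaving out members with alternate-contig copies were added after the data were seen. The members and gene lists were chosen with earlier results of these data known. The result of 1 member is not reported here, although the counts and sums over members include it.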

Additional observations from a re-analysis of the deposited data

How the results depend on the processing

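No paired analysis was possible because each method had 1 library. Leaving out a library was not possible for the same reason. Division by length changed most. Against 14 members higher by Nanopore and 7 higher by Illumina in CPM, TPM by union exonic length gave 27 and 12 (27.6% and 7.65% of all tested genes), TPM by canonical length gave 27 higher by Illumina (6.59%), and TPM by median transcript length gave 15 higher by Illumina (11.4%). The members' median log2 ratio turned to -0.39 in TPM by canonical length and to -0.26 by median transcript length, beside 0.48 and 0.31 for all tested genes. By union exonic length it stayed at 0.29, as in CPM, but the median of all tested genes moved from -0.42 in CPM to 0.42. The members' median was thus above that of all tested genes in CPM and below it on each of these length scales. The 4-fold rule left 4 and 1 members. Among the 35 tested members without overlap 6 and 2 were called, and among the 50 with under 5% shared words 4 were higher by Illumina.

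For complexes I, II, III, IV and V the summed log2 ratio was 0.23, -0.18, 0.22, 0.61 and 0.07. By canonical length it was -0.77, -0.34, -0.21, -0.60 and -0.51, and by median transcript length -0.40, -0.71, -0.40, -0.29 and -0.56. By union length it was -0.44 for I, -0.0671 for III, -0.0668 for IV and 0.16 for V. TMM scaling gave 0.32 for I, 0.30 for III, 0.70 for IV and 0.16 for V, and median-ratio scaling 0.36, 0.34, 0.74 and 0.20, with shifts of 0.09 and 0.13 common to all genes. Without overlapping members it was 0.31 for I, -0.0606 for III, 0.73 for IV and -0.0333 for V, and with under 5% shared words 0.29 for I, 0.22 for II (1 gene), 0.54 for IV and -0.0466 for V. The members' share was 2.54% of Nanopore and 1.82% of Illumina counts over nuclear protein-coding genes, 2.62% and 2.12% over genes without overlap, 1.62% of Illumina counts without assembly factors, and 2.89% and 2.14% of TPM by canonical and union length.

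Of the members called in CPM, the log2 ratios of NDUFS1 (0.96), NDUFS6 (-0.36), COX8A (-0.45) and ATP5MK (-0.14) reversed in TPM by canonical length. Members within 2-fold changed sign as well, since 35 of the 89 were above 0 on that scale and 56 in CPM. By union length, of the called members that the naming rule took, those of NDUFS1 (0.25), NDUFS6 (-0.39), SDHA (0.49) and COX8A (-1.26) reversed. By median transcript length NDUFS1 (39.7 CPM by Nanopore and 70.3 TPM), NDUFS6 (218 and 196), COX8A (459 and 453) and ATP5MK (308 and 254) kept the direction they had in CPM. The cause of these changes was not tested beyond the lengths themselves. At 2.48 CPM per count, the Nanopore depth limits every ratio, and members at 0 counts can be placed only under 7.44 CPM.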
